A study of Mus musculus with 4 samples.

Results

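GABAergic neurons of the ventral midbrain (VM) were followed through 10 genes, namely Gad1, Gad2, Slc32a1, Gata2, Gata3, Tal1, Tal2, Helt, Sox14 and Nkx2-2. The genes were chosen by symbol, with the signals of these arrays already known and several of them already seen to be low in the fetal CORIN+ cells. Their differences in the fetal pair, and between culture and fetus, are therefore a description. Each gene has 1 transcript cluster (a probe set that covers a transcript) to itself, so all 10 were measured, out of 19938 genes with such a cluster.
Signals came from 4 sorted populations with 1 array each and no replicate. The cultured cells were derived from 129SVEV mouse ESCs with GFP knocked in at the Lmx1a locus, differentiated as floating aggregates with SHH and FGF8b, and sorted on day 9. All of them were gated for LMX1A::GFP and then split on CORIN into CORIN+LMX1A::GFP+ cells, called cultured CORIN+ below, and CORIN-LMX1A::GFP+ cells, called cultured CORIN-. The fetal cells were sorted from the VM of C57BL/6N mice at E11.5 into CORIN+ and CORIN- cells, without the LMX1A::GFP gate. Strain, culture and gate therefore cannot be told apart wherever cultured and fetal cells are compared. CORIN is a serine protease of the cell membrane that marks the floor plate. The log2 signal of Corin was 13.10 in cultured CORIN+, 11.13 in cultured CORIN-, 11.43 in fetal CORIN+ and 7.28 in fetal CORIN- cells, higher in the positive population of each pair.

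A GABAergic neuron makes its transmitter from glutamate with glutamate decarboxylase, encoded by Gad1 (GAD67) and Gad2 (GAD65), and loads it into vesicles with the transporter encoded by Slc32a1 (VGAT). In the embryonic midbrain these neurons arise lateral to the floor plate, whose progenitors give dopaminergic neurons. The bHLH factor Helt and the zinc finger factor Gata2 act as the precursors leave the cell cycle and are needed for the GABAergic fate, and Tal2, Tal1 and Gata3 act with or after them in the young neurons. Sox14 marks a subset of the neurons, and Nkx2-2 marks a ventral progenitor domain. None of these genes is used by midbrain GABAergic neurons alone. Tal1 and Gata2 also act in blood cells, Nkx2-2 in other ventral progenitors, and several of the genes in the thalamus and hindbrain.

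Since GATA factors are among the genes, the promoter windows of the members are shown where the search below found their letters. The windows come from RefSeq (GRCm38.p6), run from 250 bases before to 50 bases after a start, and cover all 10 members with 12 windows. A GATA motif, spelled GATA with A or T before it and A or G after it, on either strand, was found in 4 of the 12 windows, which belong to Gata3, Slc32a1, Sox14 and Tal1, and in 29.8% of all 32851 windows. The E-box letters CAGATG, on either strand, were found in 3 of the 12 windows, of Gad2, Nkx2-2 and Tal1, and in 17.2% of all windows. The looser E-box CANNTG, which includes CAGATG, was found in 10 of the 12 and in 72.3% of all. These counts describe letters in a short window and say nothing of binding. Of the windows, the 250 bases before the start are printed for Slc32a1, Sox14 and Tal1, which hold a GATA motif there, and for Gad2, the member with the widest range of signals, with GATA and CAGATG letters in capitals.
Slc32a1, chr2:158610508-158610757, plus strand: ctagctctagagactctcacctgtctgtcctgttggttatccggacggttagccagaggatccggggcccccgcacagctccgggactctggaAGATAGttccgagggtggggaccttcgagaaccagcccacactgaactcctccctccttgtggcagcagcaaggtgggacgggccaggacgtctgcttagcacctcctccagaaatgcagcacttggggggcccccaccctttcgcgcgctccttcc
Sox14, chr9:99876171-99876420, minus strand: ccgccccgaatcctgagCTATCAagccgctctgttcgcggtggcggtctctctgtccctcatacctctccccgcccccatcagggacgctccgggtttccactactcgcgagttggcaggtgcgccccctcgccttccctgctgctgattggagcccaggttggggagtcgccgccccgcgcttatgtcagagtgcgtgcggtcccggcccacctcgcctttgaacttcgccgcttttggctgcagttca
Tal1, chr4:115056176-115056425, plus strand: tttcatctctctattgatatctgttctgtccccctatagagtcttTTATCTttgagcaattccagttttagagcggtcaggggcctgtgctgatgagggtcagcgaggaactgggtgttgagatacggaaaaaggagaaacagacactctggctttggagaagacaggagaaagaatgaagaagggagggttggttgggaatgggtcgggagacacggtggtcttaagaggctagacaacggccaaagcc
Gad2, chr2:22622077-22622326, plus strand: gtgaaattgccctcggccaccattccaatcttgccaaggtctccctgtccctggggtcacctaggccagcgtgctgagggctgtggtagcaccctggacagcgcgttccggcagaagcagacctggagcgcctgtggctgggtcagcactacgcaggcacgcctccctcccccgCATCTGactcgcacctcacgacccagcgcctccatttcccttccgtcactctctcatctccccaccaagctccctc

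The genes of GABA synthesis and vesicular loading were highest in fetal CORIN- cells and close to each other in the cultured cells. Gad2 had a log2 signal of 6.43 in cultured CORIN+, 6.25 in cultured CORIN-, 9.75 in fetal CORIN+ and 11.54 in fetal CORIN- cells. For Gad1 the log2 signals were 7.66, 7.79, 8.95 and 10.53 in the same order of arrays. For Slc32a1 they were 7.24, 7.02, 7.998 and 9.59. The fetal CORIN+ array thus lay between the cultured arrays and the fetal CORIN- array for all 3 genes, as it did for the other 7 members. The fetal CORIN+ cells were 3.45-fold lower than the CORIN- cells for Gad2, 2.99-fold lower for Gad1 and 3.01-fold lower for Slc32a1.
The transcription factors had the same order. Gata3 had log2 signals of 7.86, 8.63, 10.64 and 12.17, and Gata2 of 7.56, 7.94, 9.98 and 11.43, in the same order. Tal2 had log2 signals of 7.90, 8.88, 9.68 and 11.30 and Tal1 of 7.83, 7.88, 9.12 and 10.29. Helt was at 6.88, 6.62, 8.28 and 9.72. In the fetal pair these 5 factors were between 2.26-fold (Tal1) and 3.07-fold (Tal2) lower in CORIN+ cells, with Gata3 at 2.90-fold, Gata2 at 2.74-fold and Helt at 2.71-fold lower.
Sox14 and Nkx2-2, which mark a neuronal subset and a progenitor domain, were not set apart from the others. The log2 signals of Sox14 were 7.66, 7.54, 9.06 and 10.93, and those of Nkx2-2 were 8.02, 8.16, 9.30 and 10.64. In fetal CORIN+ cells Sox14 was 3.66-fold and Nkx2-2 2.53-fold lower than in CORIN- cells.

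**Figure D1:**
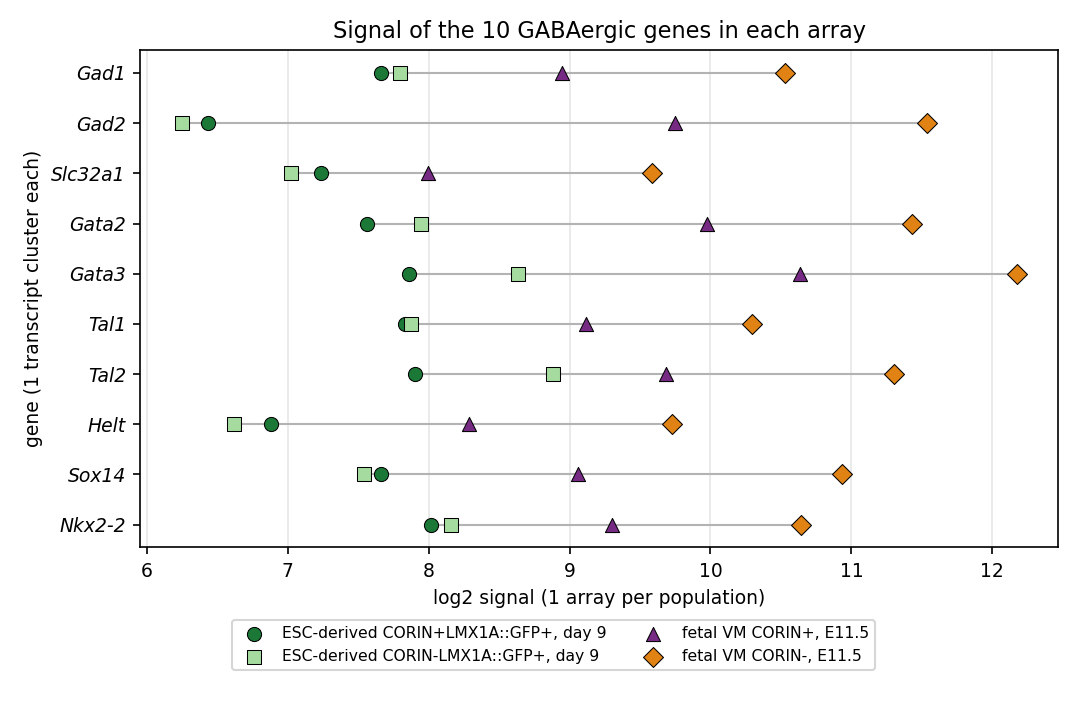
Log2 signal (horizontal axis) of each of the 10 genes (rows) in the 4 populations, 1 array each. In every row the fetal CORIN- array (diamond) lies farthest right, followed by fetal CORIN+ (triangle), with both ESC-derived arrays to the left.

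In the fetal VM, all 10 genes were at least 2-fold lower in CORIN+ than in CORIN- cells, beside 0.672% of all clusters, and 4 (Gad2, Slc32a1, Tal2 and Sox14) were at least 3-fold lower, beside 0.0485%. The median log2 difference of the members was -1.56, against -0.037 over all clusters. With the genes chosen on this comparison, the count, the median and the ranks that follow are not findings, and are given as a description. All 10 were among the 50 genes with the lowest differences, with Sox14 ranked 1, Gad2 2, Tal2 8 and Slc32a1 10 from the lowest of 19938 genes, and Tal1 the last of the members at 47. In sorted bulk samples, fewer cells of a type and less RNA per cell cannot be told apart.
The order of levels, fetal CORIN- over fetal CORIN+ over both cultured arrays, held for 10 of 10 members and for 20.7% of all clusters. It also held for 20 of 20 pan-neuronal genes (such as Tubb3, a neuronal tubulin, and Elavl3, an RNA-binding protein). Over the members, the gap between fetal CORIN+ cells and the higher of the cultured arrays ran from 0.76 (Slc32a1) and 0.80 (Tal2) to 3.32 (Gad2) log2 units. The pan-neuronal genes had a median log2 difference of -0.60 in the fetal pair, from -1.11 (Syt1, a synaptic vesicle protein) to -0.26 (Map2, a microtubule-associated protein). The members ran from -1.87 (Sox14) to -1.18 (Tal1), values that were known when they were chosen and are set beside the pan-neuronal ones as a description.

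The cultured pair is an unlike contrast, since Corin differed 3.90-fold there and 17.7-fold in the fetal pair. None of the 10 genes was at least 2-fold lower in cultured CORIN+ than in cultured CORIN- cells, beside 0.468% of all clusters, and none was at least 2-fold higher, beside 0.353%. With shares this small, none of 10 says little about the members. The median log2 difference of the members was -0.087. The genes of GABA synthesis and loading lay near 0, with log2 differences of -0.13 for Gad1, 0.18 for Gad2 and 0.22 for Slc32a1. Helt was at 0.26, Sox14 at 0.12, Tal1 at -0.04 and Nkx2-2 at -0.14. The signals behind these differences were low, with 9 of the 10 members below the median signal of the cultured CORIN+ array and 7 below that of the cultured CORIN- array. Whether they lay above background is not known, so a difference near 0 does not show a lack of change.
Tal2 and Gata3 stood apart from these, and Gata2 less so. Tal2 was 1.97-fold lower in cultured CORIN+ cells, just under the 2-fold line, and Gata3 1.71-fold lower. At 1.5-fold, these 2 of the 10 members were lower, beside 1.98% of all clusters, and Gata2 was 1.31-fold lower. From the lowest of 19938 genes, Tal2 ranked 112, Gata3 226 and Gata2 957. The spread of the log2 differences over all clusters, as a scaled median absolute deviation, was 0.146. It is a spread over clusters and not over replicates, and no replicate error can be given.
Neuronal genes as a whole were lower in the cultured CORIN+ array too. All 20 pan-neuronal genes had a lower signal there, 3 of them at least 2-fold, beside 0.468% of all clusters, with a median log2 difference of -0.62. Of the 10 GABAergic genes, 8 lay above that median. Most clusters did too, since 1.98% of all were at least 1.5-fold lower, so this count says little about the members. The pan-neuronal genes ran from -1.02 to -0.096, a range that holds Tal2, Gata3, Gata2, Nkx2-2 and Gad1. The fetal difference minus the cultured difference was -1.996 for Sox14, -1.97 for Gad2, -1.81 for Slc32a1 and -1.70 for Helt on the log2 scale, and -0.64 for Tal2 and -0.76 for Gata3. Whether the differences of the pairs differ could not be tested with 1 array per population.

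**Figure D2:**
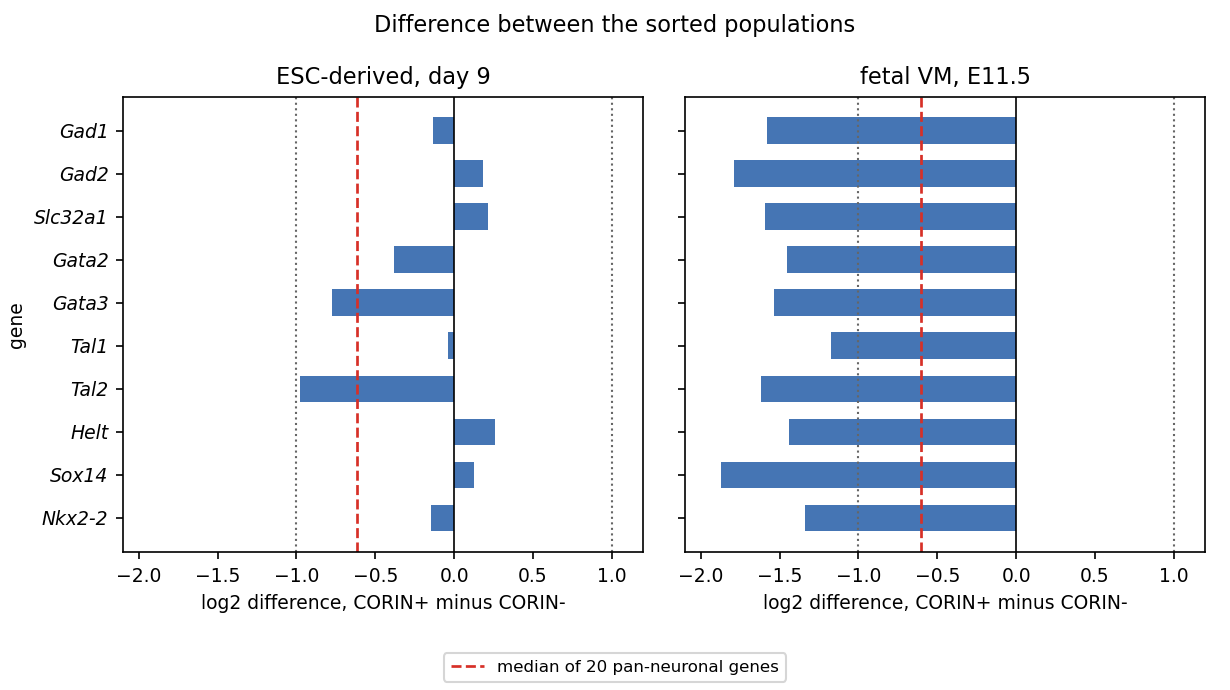
Log2 difference, CORIN+ minus CORIN- (horizontal axis), of each gene in the ESC-derived pair (left) and the fetal pair (right), 1 array per population. Dotted lines mark 2-fold and the dashed line the median of 20 pan-neuronal genes (-0.62 and -0.60); all fetal bars pass 2-fold to the left, and none of the ESC-derived bars does.

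Cultured cells had less signal than fetal cells for every member. Against fetal CORIN- cells, cultured CORIN- cells were at least 2-fold lower in 10 of 10 members, beside 3.53% of all clusters, and all 10 were at least 3-fold lower, beside 1.22%. The median log2 difference was -2.92, with Gad2 the lowest at 39.0-fold lower, which ranked 3 from the lowest of all genes. Gata3 and Gata2 were 11.6-fold and 11.2-fold lower, Sox14 10.5-fold, Helt 8.60-fold and Gad1 6.64-fold. Slc32a1 was 5.93-fold, Nkx2-2 5.59-fold, Tal2 5.35-fold and Tal1 5.34-fold lower.
Between the CORIN+ populations the distance was smaller. Cultured CORIN+ cells were at least 2-fold lower than fetal CORIN+ cells in 9 of 10 members, beside 3.86% of all clusters, with a median of -1.40, and 4 were at least 3-fold lower, beside 1.71%. Gad2 was 9.97-fold lower, Gata3 6.87-fold, Gata2 5.34-fold and Tal2 3.43-fold, and Gad1, Tal1, Helt, Sox14 and Nkx2-2 were between 2.43-fold (Tal1) and 2.65-fold (Helt) lower. Slc32a1 was 1.69-fold lower and did not reach 2-fold. These comparisons share the fetal arrays with the fetal pair, so they are no separate evidence of the order of levels.
The pan-neuronal genes were lower in culture as well, and they give a scale for this gap. Their median log2 difference was -1.58 between the CORIN+ populations and -1.79 between the CORIN- populations, with 17 of 20 genes at least 2-fold lower in each. The members' median was thus close to the pan-neuronal one between CORIN+ populations (-1.40), and lay below it between CORIN- populations (-2.92). Floor plate genes ran the other way: 6 of 10 were at least 2-fold higher in cultured CORIN+ cells, beside 2.70% of all clusters, and 8 of 10 in cultured CORIN- cells, beside 3.94%. Shh, the ventralizing signal of the floor plate, had log2 differences of 1.74 and 1.93. No detection calls came with the arrays. Where a cultured signal lies at the background of the array, these folds understate the true ones.

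**Figure D3:**
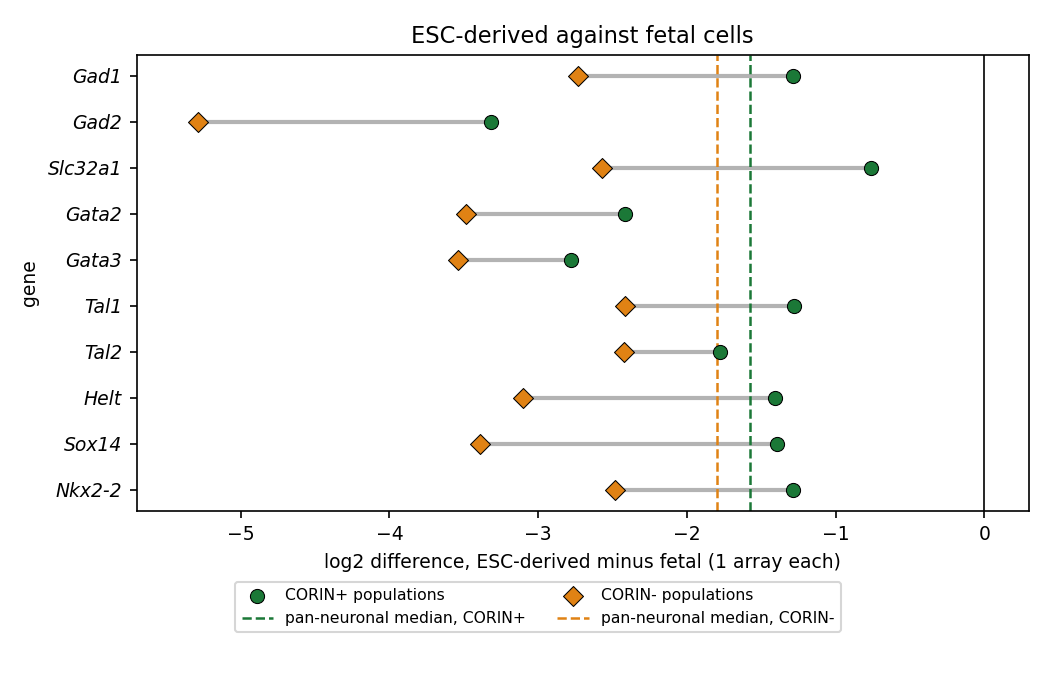
Log2 difference, ESC-derived minus fetal (horizontal axis), of each gene for the CORIN+ populations (circles) and the CORIN- populations (diamonds), 1 array each. Dashed lines are medians of 20 pan-neuronal genes (-1.58 and -1.79); every diamond lies left of both dashed lines, and Gad2 lies farthest left at -5.29.

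Of 16 other regulators of midbrain GABAergic neurogenesis that were measured, 4 were at least 2-fold lower in fetal CORIN+ cells, beside 0.672% of all clusters, and none higher, with a median log2 difference of -0.55. The LIM homeobox genes Lhx1 and Lhx5 were at -1.53 and -1.39, the homeobox gene Six3 at -1.25 and Nkx6-2, a ventral progenitor factor, at -1.05. Zfpm1 and Zfpm2, whose products bind GATA factors, were at -0.86 and -0.62. In the cultured pair 2 of the 16 were at least 2-fold lower, beside 0.468% of all clusters, Lhx5 at -1.75 and Dmbx1, a midbrain homeobox gene, at -1.47. Lhx5 had log2 signals of 8.03 in cultured CORIN+, 9.78 in cultured CORIN-, 9.76 in fetal CORIN+ and 11.14 in fetal CORIN- cells. For Lhx1 the log2 signals were 7.76, 8.26, 10.51 and 12.04.
Of 10 genes for partners of the TAL and GATA factors, among them Ldb1, Lmo1 to Lmo4 and the E proteins Tcf3, Tcf4 and Tcf12, none was at least 2-fold higher or lower in either pair. The shares of all clusters were 0.353% higher and 0.468% lower in the cultured pair, and 2.67% and 0.672% in the fetal pair. With shares this small, none of 10 says little about these genes. Their medians were -0.17 in the cultured pair and 0.29 in the fetal pair. In the cultured CORIN+ array 2 of the 10 were higher and 8 lower, and in the fetal CORIN+ array 7 were higher and 3 lower. Lmo1, a LIM-only protein, was among the lower ones in both, at -0.78 in the cultured pair and -0.52 in the fetal pair.
GABA receptor subunits stayed under 2-fold within each pair, and in the fetal pair 9 of 10 were lower in CORIN+ cells and 1 was higher. Of 13 subunits 10 were measured, and none was at least 2-fold higher or lower in either pair, beside the same small shares of all clusters. Their median was -0.03 in the cultured pair and -0.47 in the fetal pair. Cultured cells were at least 2-fold lower than fetal cells for 4 of 10 between CORIN- populations, beside 3.53% of all clusters. Between CORIN+ populations this held for 1 of 10, beside 3.86%. Gabrb2 had the widest gap between culture and fetus, with log2 signals of 8.24, 8.47, 10.05 and 10.71. Of 6 measured genes of GABA uptake and breakdown, 5 lay under 2-fold in both pairs. Abat, the enzyme that breaks GABA down, was at 0.28 in the cultured pair and -0.19 in the fetal pair.

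Of 12 regulators of GABAergic neurons in other brain regions, 3 were at least 2-fold lower in fetal CORIN+ cells, namely the forebrain homeobox genes Dlx1 (-1.70), Dlx2 (-1.60) and Dlx5 (-1.46), beside 0.672% of all clusters. The other 9 lay under 2-fold, and the median of the 12 was -0.45. Dlx1 had log2 signals of 7.23, 7.19, 9.45 and 11.15 in the 4 arrays in the order above, and Dlx2 of 6.87, 7.17, 9.12 and 10.72. Ptf1a and Lbx1, of hindbrain and spinal GABAergic lineages, were at -0.24 and -0.07. Dlx genes are known from forebrain and diencephalic neurons. Where in the dissected tissue their transcripts, and those of the members, lay was not tested.
Among 11 peptide and calcium-binding protein genes of GABAergic neurons, 3 were at least 2-fold lower in fetal CORIN+ cells, beside 0.672% of all clusters, and 1, the opioid peptide precursor Penk, was at least 2-fold higher (2.21), beside 2.67%. Somatostatin (Sst) was at -1.59, with log2 signals of 8.11, 8.34, 10.08 and 11.67, the peptide precursor Pnoc at -1.22 and Calb1 at -1.16. Npy was at -0.76, and Vip, Pvalb and Nts were between -0.41 and -0.02. In the cultured pair, Tac1, the precursor of substance P, was at -1.84, with 6.97 in cultured CORIN+ and 8.80 in cultured CORIN- cells, and 7.12 in both fetal arrays.

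Genes of other neurons are set beside the members as a description. Of 11 measured genes of glutamatergic, motor and red nucleus neurons, 1 was at least 2-fold lower in fetal CORIN+ cells (the motor neuron factor Isl1, at -1.07), beside 0.672% of all clusters. All 11 were below 0, with a median of -0.32. Slc17a6, the vesicular glutamate transporter of the midbrain, was at -0.38 in the fetal pair and -0.92 in the cultured pair, the reverse of the order for Slc32a1. None of 10 dopaminergic genes was past 2-fold in either pair, with medians of -0.02 in the cultured pair and 0.19 in the fetal pair. Of all clusters, 0.353% were higher and 0.468% lower by 2-fold in the cultured pair, and 2.67% and 0.672% in the fetal pair. Th, which makes the precursor of dopamine, was higher in the CORIN+ array of both pairs, at 0.61 and 0.87. The 10 genes did not share a direction: 5 were higher and 5 lower in the cultured CORIN+ array, and 6 higher and 4 lower in the fetal CORIN+ array. Gata2, Gata3 and Nkx2-2 are also genes of serotonergic neurons, whose own genes Tph2, Slc6a4 and Htr1a were at -0.34, -0.08 and -0.25 in the fetal pair. Those 3 genes had fetal log2 signals from 5.86 to 7.06, below the array medians, so their differences say little about such cells. Fev and Slc22a3 were not measured.
Markers of blood and other non-neural cells differed the opposite way in the fetal pair. Of 10 measured erythroid genes, 5 had at least 2-fold more signal in the CORIN+ array, beside 2.67% of all clusters, and their summed linear signal was 27950 against 9198 in CORIN- cells. The largest log2 differences were those of Hbb-bh1 (2.46), Slc4a1 (2.04), Hba-x (2.01) and Hbb-y (1.36). Gata1, Klf1 and Gfi1b, factors of that lineage, stayed under 2-fold, at 0.30, -0.10 and -0.03. Of 12 macrophage genes 11 were past 2-fold in that direction, with a summed linear signal of 17973 against 1299, and all 12 mesenchyme genes were, with 24212 against 5404. Of 12 endothelial genes 2 were. Tal1 and Gata2, which act in blood cells too, were lower in that CORIN+ array, at -1.18 and -1.45. The part of the other cells in these values was not tested.

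**Figure D4:**
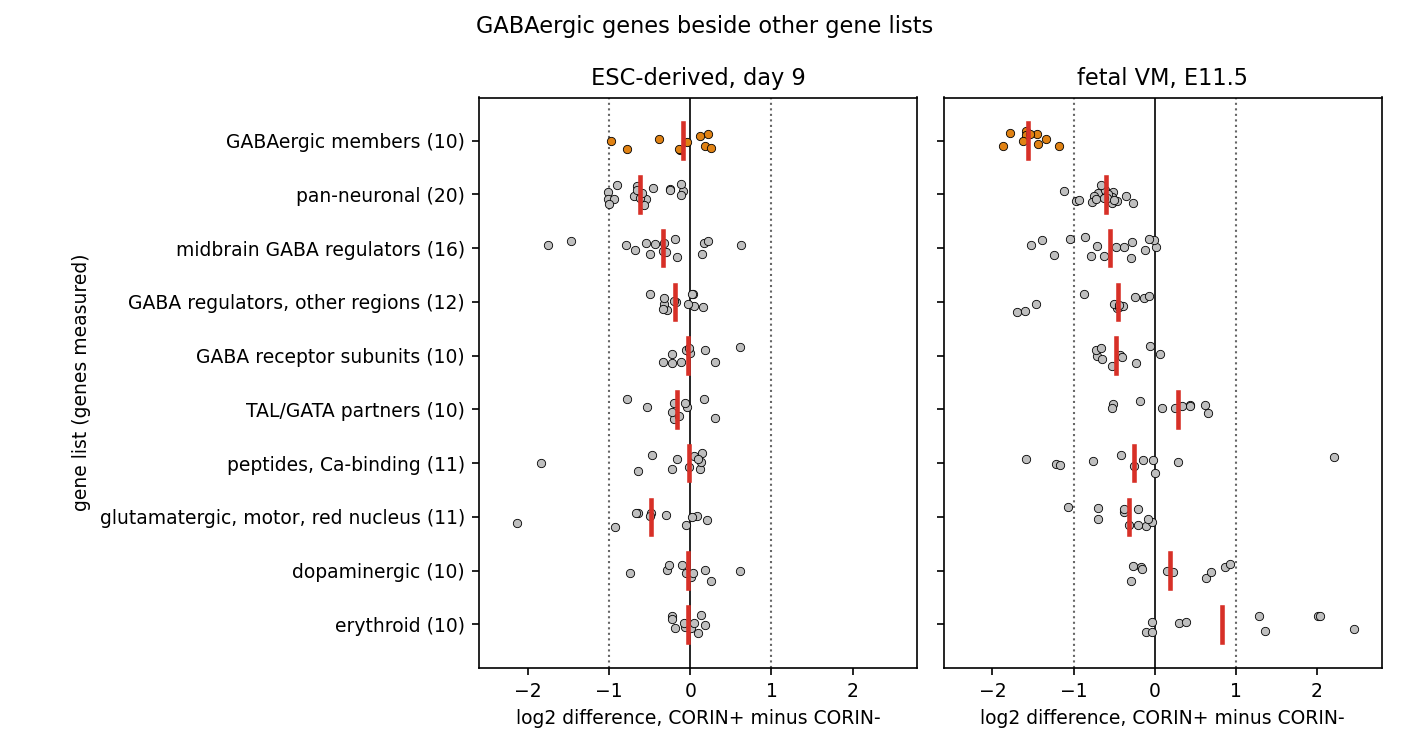
Log2 difference, CORIN+ minus CORIN- (horizontal axis), of each measured gene (circles) in 10 gene lists for the ESC-derived pair (left) and the fetal pair (right), 1 array per population, with the number of genes in parentheses. Red bars are medians and dotted lines mark 2-fold; the GABAergic members have medians of -0.087 and -1.56, and pan-neuronal genes -0.62 and -0.60.

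The genes most like the transmitter genes over the 4 arrays were then listed. Likeness was the root mean square distance between a gene's deviations from its own mean log2 signal and the mean deviations of Gad1, Gad2 and Slc32a1 (-1.28, -1.37, 0.50 and 2.16), over 4 arrays. It was computed for 2723 other genes with a range of at least 1 log2 unit, and a small distance over 4 arrays says little about any single gene. The nearest was Pax5, a midbrain and hindbrain patterning factor, at 0.064, with log2 signals of 7.54, 7.40, 9.31 and 10.82. The next were Nrxn3, a synaptic adhesion protein (0.098), Sst (0.114), the member Sox14 (0.154) and Tmem130 (0.159). Dlx2 (0.183), the bHLH factor Olig3 (0.195), Pdlim3 (0.212), Dlx1 (0.215) and the ephrin receptor Epha5 (0.219) followed.
The other members came after these. Helt ranked 11 and Gata2 12, Gata3 39, Nkx2-2 48, Tal1 54 and Tal2 61 of the 2723. The members were chosen with these arrays known, and the reference profile is that of 3 members. The ranks of the members, Sox14 included, are therefore a description and no evidence of a shared programme. The 3 reference genes were themselves 0.335 (Gad1), 0.824 (Gad2) and 0.499 (Slc32a1) from their own mean, so several genes were closer to it than they were.

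**Figure D5:**
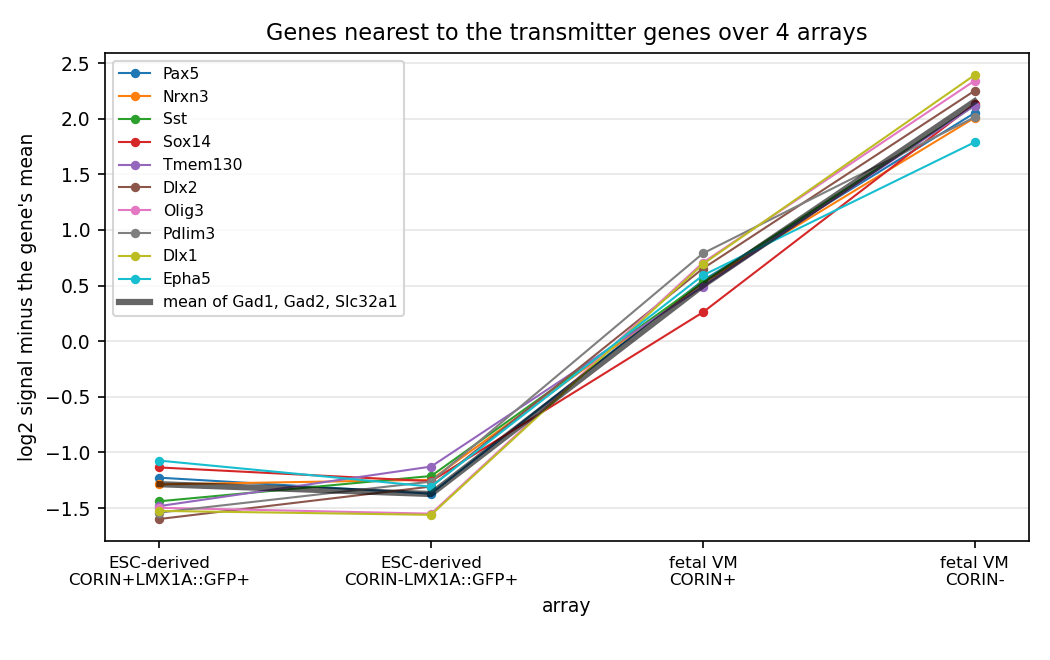
Log2 signal minus the gene's mean over the 4 arrays (vertical axis) in each population (horizontal axis, 1 array each) for the 10 genes nearest to the mean of Gad1, Gad2 and Slc32a1 (thick line). The lines run together, low in both ESC-derived arrays and highest in fetal CORIN- cells, and Pax5 lies nearest (0.064).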

How the data were processed

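RNA from 4 sorted populations was hybridized to Affymetrix whole-transcript mouse arrays, 1 array per population. For each of 28856 transcript clusters and each array, a log2 signal was deposited by the authors, whose text names GeneSpring. The sources used here do not give the probe summarization, the normalization between arrays or the build. The median log2 signals of the arrays were between 7.97 and 8.03.

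The platform annotation gives 21789 clusters a single symbol and 1621 several (not used), and 5446 are unnamed here. For 21698 of those with a single symbol, the symbol was taken through the gene identifier (GRCm38.p6), whether or not it changed. The brightest cluster stood for a gene with several. Differences of log2 signals were taken, and genes past 2-fold were counted beside the share of all clusters. With single arrays no test was possible, and the precision of all values is limited by their number.

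The members and the 18 gene lists (188 entries, 175 measured, members included) were chosen with earlier results of these data known. Named were all members, Corin, list genes past 2-fold in a pair (at most 4 per list and pair) or up to 4 giving a list's levels, and the 10 genes nearest to the transmitter genes. Other list genes in the text were named after their values were seen.

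Alternatives were quantile normalization, centring on the median difference, 32 added to the linear signal, the mean over a gene's clusters, thresholds of 1.5-fold and 3-fold and, over all clusters, a filter at the 50th percentile of signal. Scripts were tested on simulated data and used Python 3.11.15, numpy 2.4.6, pandas 2.3.3 and matplotlib 3.10.9.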

Additional observations from a re-analysis of the deposited data

Results flagged for a closer look

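Of the 10 genes, 4 had more signal in cultured CORIN+ than in cultured CORIN- cells and less in fetal CORIN+ than in fetal CORIN- cells. The fetal difference minus the cultured difference was -1.97 for Gad2, -1.81 for Slc32a1, -1.70 for Helt and -1.996 for Sox14 on the log2 scale. The opposite signs singled them out, and the difference between the pairs was not tested, since each population has 1 array. Their cultured differences were small (0.18, 0.22, 0.26 and 0.12). Over all clusters the median log2 difference was 0.002 in the cultured pair and -0.037 in the fetal pair. The share of all clusters with these opposite signs was not counted. The fetal direction was known for several members when they were chosen, so the count of 4 says little about them. No group had enough arrays to look for an array far from the others.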

How the results depend on the processing

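The direction and the count of members past 2-fold were the same under quantile normalization of the arrays, centring on the median difference, 32 added to the linear signal, and the mean over the clusters of a gene, which changes nothing for the members because each of the 10 has 1 cluster. Under these settings the members' median log2 difference ran from -0.089 to -0.059 in the cultured pair, from -1.56 to -1.497 in the fetal pair, from -1.42 to -1.23 between CORIN+ populations and from -2.95 to -2.66 between CORIN- populations. At 1.5-fold, 2 members were lower in the cultured pair, beside 1.98% of all clusters, and at 3-fold 4 were lower in the fetal pair (0.0485% of all clusters), 4 between CORIN+ populations (1.71%) and 10 between CORIN- populations (1.22%). With 32 added, the log2 difference of Gad2 was -2.91 between CORIN+ and -4.80 between CORIN- populations, and that of Helt -2.75 between CORIN- populations, which follows from adding a constant to low signals. The clusters at least 2-fold lower in the fetal pair numbered 194, and 118 with 32 added or 98 once clusters were limited to the upper 50 percent of signal on some array. No paired analysis was possible because each population has 1 array and the labels number no replicates. Signal over background was not known for any array, and this limits the folds of genes that are dim in culture.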

Other observations

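Within the lists on GABA, 2 genes were at least 2-fold higher in fetal CORIN+ than in fetal CORIN- cells. Slc6a13, a GABA transporter known from the meninges, had log2 signals of 7.27 in cultured CORIN+, 7.44 in cultured CORIN-, 10.11 in fetal CORIN+ and 7.88 in fetal CORIN- cells, a log2 difference of 2.23 in the fetal pair. The opioid peptide precursor Penk had 7.82, 8.46, 10.90 and 8.69, a difference of 2.21. The mesenchyme list (12 of 12 genes past 2-fold, median 2.12) moved the same way, and its part in these values was not tested.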
